A study of Homo sapiens with 6 samples.

Results

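The genes described here are 10 regulators and targets of WNT signalling: the ligand WNT5A, the receptor FZD7, the secreted modulators DKK1, DKK3 and SFRP1, the Dishevelled partner DACT1, β-catenin itself (CTNNB1), AXIN2, LEF1 and TCF7. They were chosen by name with earlier results of these data known, and each gene was read from its probe sets that carry a single gene symbol. Of the 10 genes, 9 had such a probe set, with 26 probe sets between them, and TCF7 was not analysed here. The whole series holds 19775 genes with a single-symbol probe set, of which 13506 had a mean of at least 5 log2 units and were tested. All 9 measured genes were among those tested, each through its brightest probe set on average.

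RNA came from A375, a human melanoma line with an activated BRAF kinase, in which the gene for the translation initiation factor eIF4B had been knocked out by CRISPR. The knockout cells were transduced with lentivirus for LacZ, giving the knockout line KO/LacZ, or for wild-type eIF4B, giving the rescued line that the labels call KO/eIF4B, so all cells of the study carry the knockout and a lentiviral transgene. Each of the 2 lines was given DMSO vehicle, or vemurafenib at 10 µM over 6 h or 18 h, with 1 Affymetrix array for each of the 6 combinations. Vemurafenib inhibits mutant BRAF. The labels give no time for vehicle, and they are silent on whether the lines are clones and whether each array had its own culture. Each p-value thus covers only the spread among these 6 arrays. In bulk RNA, fewer cells of a type and less RNA per cell cannot be told apart.

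In canonical WNT signalling a ligand binds a Frizzled receptor and an LRP co-receptor, and Dishevelled then shuts off a destruction complex built on Axin and APC, so that β-catenin accumulates and activates genes with TCF and LEF factors. Outside the cell, Dickkopf proteins act on the co-receptor and SFRP proteins on the ligand. AXIN2 and LEF1 are themselves transcribed by the pathway in many tissues. In melanoma, WNT5A is known for β-catenin-independent signalling and for invasive cell states, and β-catenin for a link to pigment cell identity.

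As a check of the series, the ERK feedback phosphatase DUSP6 gave 10.10, 4.77 and 4.60 log2 units in KO/LacZ arrays over vehicle, 6 h and 18 h, and 9.96, 4.91 and 4.84 in KO/eIF4B arrays. EIF4B mRNA, read by its brightest probe set, stood at 8.40, 8.53 and 8.53 in KO/LacZ arrays and at 10.07, 10.14 and 10.28 in KO/eIF4B arrays. It was 3.2-fold lower in the knockout line, with a difference of -1.68 log2 units (SE 0.05, adjusted p = 0.0056 by limma, Benjamini-Hochberg over all tested genes). Its other 2 probe sets were not lower there, at 0.19 and 0.17 (adjusted p of 0.26 and 0.27 in the fit of all probe sets). The call of the brightest probe set was lost when a 6 h or an 18 h array was left out, with adjusted p up to 0.082, while the difference stayed between -1.71 and -1.64. Of 9 melanocytic markers 8 had a mean of at least 5, SOX10 among them at 9.86 to 10.57, whereas the pigment gene MLANA stayed at 4.76 to 4.99. Of the 8, TYR, PMEL and S100A1 were dim as well, with means of 5.57, 5.68 and 5.83. The level of 5 lies below the median of every array, so a mean of at least 5 does not by itself show expression. The epithelial markers EPCAM, CDH1 and KRT19 lay below 5 in all arrays. Some markers moved with treatment. Over vehicle, 6 h and 18 h, the summed intensity of the 9 melanocytic markers was 3122, 2573 and 3525 in KO/LacZ arrays and 3258, 2679 and 3310 in KO/eIF4B arrays, lowest at 6 h in both. The sum weighs bright genes most, and SOX10 was the brightest of the 9 in every array. At 6 h SOX10, CSPG4 and MCAM fell (-0.63, -0.55 and -0.55, adjusted p of 0.017, 0.013 and 0.0079), whereas MITF rose by 1.01 (adjusted p = 0.0043). At 18 h MITF was higher than under vehicle by 1.63 log2 units (adjusted p = 0.00035), whereas CSPG4 and MCAM fell (-0.74 and -0.63, adjusted p of 0.0013 and 0.0012). The sum of 3 blood cell markers, 2 of them with a mean of at least 5, was 173.2, 159.7 and 127.8 in KO/LacZ arrays and 205.3, 194.4 and 134.1 in KO/eIF4B arrays, lowest at 18 h, where LYZ fell by 0.86 (adjusted p = 0.0013), while PTPRC stayed near 3 in all arrays (2.92 to 3.17). That of 4 fibroblast markers, 2 with such a mean, ranged from 333.7 to 367.0. The part of these markers in the results was not tested.

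The genes did not move in one direction under vemurafenib. DACT1 rose at 6 h and stayed up. SFRP1, LEF1 and FZD7 fell at 6 h and at 18 h, and SFRP1 and LEF1 fell further between the times. DKK3 rose at 18 h, WNT5A passed the threshold narrowly at 18 h, and CTNNB1 fell by a small amount. DKK1 and AXIN2 missed the threshold at both times. At 6 h, 4 of the 9 genes passed the threshold of 0.05 against vehicle, 1 higher and 3 lower, where 16.2% of all tested genes passed, 7.34% higher and 8.82% lower. At 18 h, 7 passed, 3 higher and 4 lower, against 51.4% of all tested genes, 28.1% higher and 23.3% lower. The median size of change over the 9 genes was 0.50 log2 units at 6 h and 0.68 at 18 h, beside 0.13 and 0.25 over all tested genes. Because the genes were chosen with earlier results of these data known, these counts and sizes are no test of the set. DACT1 also reached the filter through its vemurafenib arrays.

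**Figure D1:**
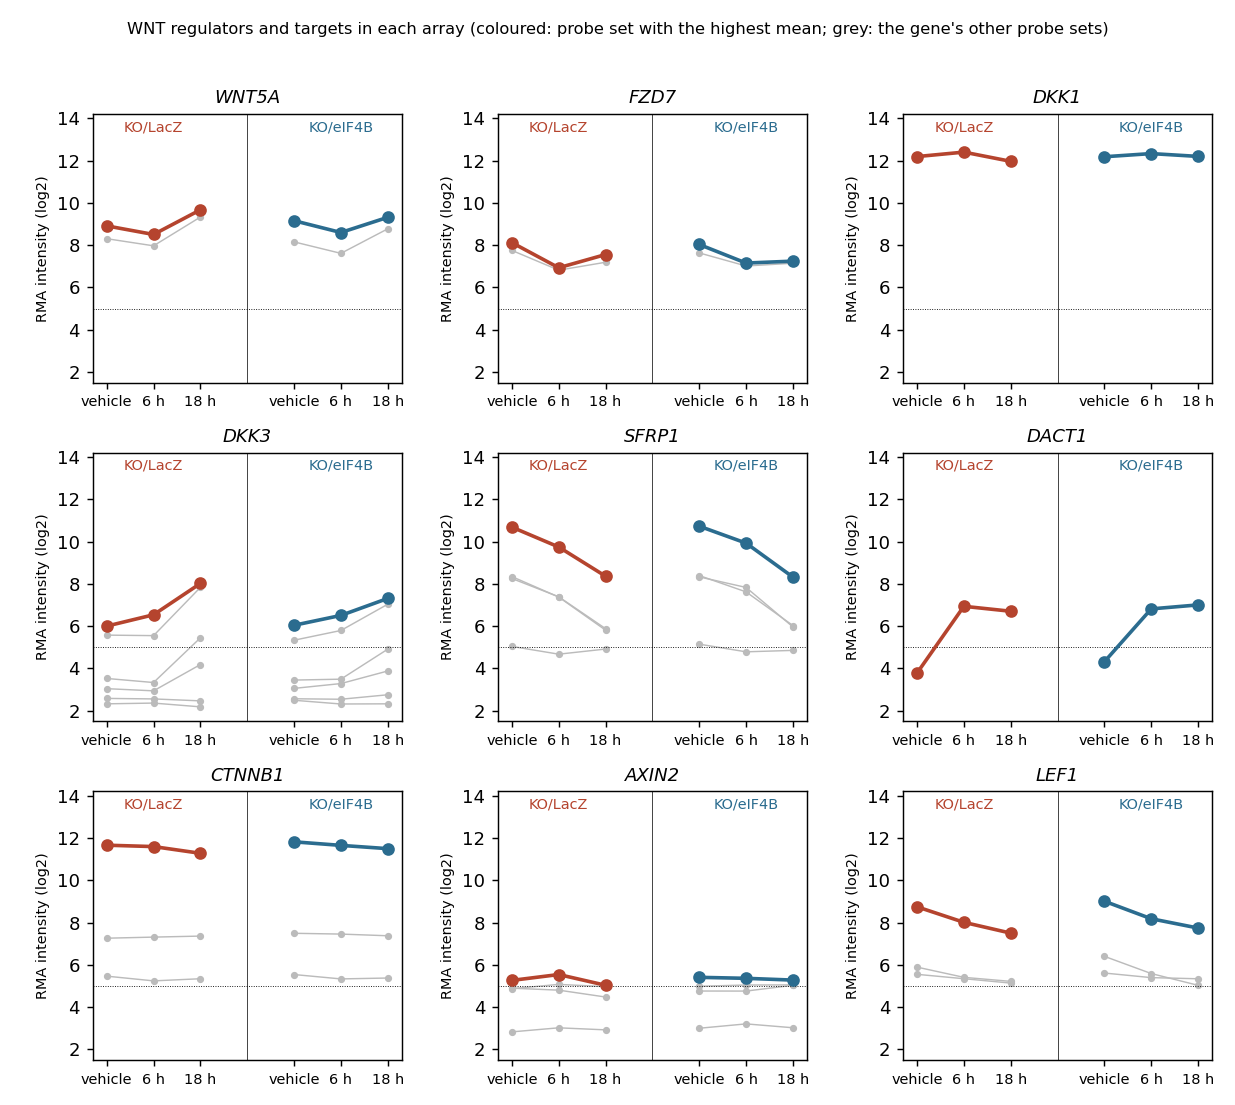
RMA intensity (log2) of 9 WNT regulators and targets in each of the 6 arrays, with the knockout line (KO/LacZ, red) left and the rescued line (KO/eIF4B, blue) right in every panel. Coloured points are the probe set with the highest mean, grey points the gene's other probe sets, and the dotted line the level of 5 required for testing. DACT1 stands at 3.78 and 4.32 under vehicle and at 6.70 to 7.004 under vemurafenib.

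WNT5A rose between 6 h and 18 h. For WNT5A, KO/LacZ arrays gave 8.91, 8.51 and 9.67 log2 units over vehicle, 6 h and 18 h, and KO/eIF4B arrays 9.16, 8.60 and 9.32. In both lines the 6 h array was the lowest and the 18 h array the highest. WNT5A was higher at 18 h than at 6 h by 0.94 (SE 0.15, 95% interval 0.56 to 1.32, adjusted p = 0.0096), or 1.9-fold. With an array left out this step ran from 0.68 to 1.20, and its call was lost without the 6 h array of the knockout line. Against vehicle WNT5A was at -0.48 at 6 h (adjusted p = 0.090) and at 0.46 at 18 h (95% interval 0.08 to 0.84, adjusted p = 0.0499). The second WNT5A probe set gave -0.44 at 6 h (adjusted p = 0.0502), 0.82 at 18 h (adjusted p = 0.0022) and 1.26 between the times (adjusted p = 0.0027) in the fit of all probe sets. For the first probe set the 18 h call held in 2 of the 6 fits that leave out an array. Its value was 0.27 without the vehicle array of the knockout line and 0.20 without that line's 18 h array, with adjusted p-values of 0.28 and 0.15, and the call was also lost at 0.066 without either 6 h array.

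FZD7, a Frizzled receptor, fell at both times. For FZD7, KO/LacZ arrays gave 8.12, 6.93 and 7.56 log2 units over vehicle, 6 h and 18 h, and KO/eIF4B arrays 8.03, 7.16 and 7.25. All vemurafenib arrays lay below both vehicle arrays, and the 6 h array was the lowest in each line. The changes were -1.03 at 6 h (SE 0.13, 95% interval -1.37 to -0.70, adjusted p = 0.010) and -0.68 at 18 h (adjusted p = 0.0094). The partial return of 0.36 between the times missed the threshold (adjusted p = 0.092). The other FZD7 probe set gave -0.78 and -0.52 in the fit of all probe sets, both passing. Without the vehicle array of the knockout line the 6 h change was -1.01 and its adjusted p 0.0501.

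DKK1 encodes a secreted inhibitor that binds the LRP co-receptors. For DKK1, KO/LacZ arrays gave 12.19, 12.40 and 11.97 log2 units over vehicle, 6 h and 18 h, and KO/eIF4B arrays 12.19, 12.34 and 12.20. The 6 arrays spanned 0.44 log2 units, and the 18 h arrays lay on either side of the vehicle arrays. The changes were 0.18 at 6 h (95% interval -0.05 to 0.41, adjusted p = 0.24) and -0.10 at 18 h (95% interval -0.34 to 0.13, adjusted p = 0.39). Both 6 h arrays stood above both 18 h arrays, and that difference, -0.28, missed the threshold (adjusted p = 0.064).

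DKK3, a secreted Dickkopf relative whose role in WNT signalling is less settled and which is often silenced in tumours, rose at 18 h. For DKK3, KO/LacZ arrays gave 6.00, 6.54 and 8.02 log2 units over vehicle, 6 h and 18 h, and KO/eIF4B arrays 6.04, 6.51 and 7.31. On this probe set the order was the same in both lines, with 18 h highest and vehicle lowest, and no array of one treatment overlapped another treatment. At 18 h it was 3.1-fold above vehicle (log2 change 1.64, SE 0.19, 95% interval 1.16 to 2.13, adjusted p = 0.0018). The 6 h value of 0.50 missed the threshold (95% interval 0.02 to 0.99, adjusted p = 0.14), and the step from 6 h to 18 h was 1.14 (adjusted p = 0.011). Of the other 5 DKK3 probe sets, 3 were also higher at 18 h than under vehicle in both lines, by 0.82 to 2.26 log2 units. At 6 h these 3 changed by -0.02, -0.19 and -0.10 in the knockout line and by 0.46, 0.04 and 0.23 in the rescued line. The remaining pair stayed between 2.18 and 2.75 in all arrays.

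SFRP1 encodes a secreted Frizzled-related protein that binds WNT ligands. For SFRP1, KO/LacZ arrays gave 10.68, 9.74 and 8.36 log2 units over vehicle, 6 h and 18 h, and KO/eIF4B arrays 10.73, 9.93 and 8.32. The lines lay within 0.18 of each other at each treatment, and the treatments did not overlap. SFRP1 fell at both times, with changes of -0.87 at 6 h (SE 0.08, adjusted p = 0.0038) and -2.37 at 18 h (SE 0.08, 95% interval -2.56 to -2.17, adjusted p = 0.00014), which is 5.2-fold. The 18 h level was below the 6 h level as well (-1.49, adjusted p = 0.0019). The next 2 probe sets showed the same steps, at -2.45 and -2.37 for 18 h in the fit of all probe sets, and the dimmest ranged from 4.67 to 5.15, with changes between -0.37 and -0.12. All 3 SFRP1 calls held whichever array was left out.

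DACT1 encodes a scaffold protein that binds Dishevelled and can restrain or redirect WNT signalling. For DACT1, KO/LacZ arrays gave 3.78, 6.94 and 6.70 log2 units over vehicle, 6 h and 18 h, and KO/eIF4B arrays 4.32, 6.81 and 7.004. All 4 vemurafenib arrays lay more than 2 log2 units above both vehicle arrays, and the vehicle arrays lay below the level of 5 that the mean had to reach. DACT1 therefore entered the test through its vemurafenib arrays. The rise was 2.83 log2 units at 6 h (SE 0.16, 95% interval 2.43 to 3.23, adjusted p = 0.0010) and 2.81 at 18 h (SE 0.16, adjusted p = 0.00033), or 7.1-fold and 7.0-fold. Without a filter on dim genes the adjusted p-values were 0.0014 and 0.00050. The 18 h and 6 h arrays differed by -0.02 (95% interval -0.42 to 0.38, adjusted p = 0.92). The size depends on the scale: on log2(value + 32) the changes were 1.62 and 1.60, and both passed. Taken line by line, the change at 6 h and 18 h was 3.16 and 2.92 in the knockout line and 2.50 and 2.69 in the rescued line, and under vehicle the knockout line differed from the rescued line by -0.54.

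The sequence around the first annotated start of DACT1 is shown because this gene made the widest change on the log2 scale (on log2(value + 32) SFRP1 did, at -2.26), and that around the start of DKK1 because the other copies of the TCF/LEF core found in the windows searched lie there. Both are RefSeq windows from 250 bases before to 50 after the start, build GRCh38.p14, plus strand, 5′ to 3′. DACT1 is chr14:58633811-58634110 and DKK1 is chr10:52314031-52314330. Capitals mark CTTTGA or its reverse complement TCAAAG.
DACT1: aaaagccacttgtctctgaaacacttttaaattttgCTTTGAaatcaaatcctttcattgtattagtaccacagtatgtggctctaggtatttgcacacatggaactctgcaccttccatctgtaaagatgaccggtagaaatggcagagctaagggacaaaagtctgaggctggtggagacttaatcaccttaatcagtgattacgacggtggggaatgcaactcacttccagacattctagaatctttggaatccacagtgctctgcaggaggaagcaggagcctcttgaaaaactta
DKK1: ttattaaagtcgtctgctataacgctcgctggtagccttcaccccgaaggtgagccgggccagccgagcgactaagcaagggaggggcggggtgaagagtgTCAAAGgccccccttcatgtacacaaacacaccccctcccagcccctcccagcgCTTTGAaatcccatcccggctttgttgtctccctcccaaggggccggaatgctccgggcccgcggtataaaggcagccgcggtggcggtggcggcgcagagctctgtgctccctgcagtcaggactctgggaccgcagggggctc

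The core begins 214 bases before the start in DACT1, and 149 and 95 bases before it in DKK1. RefSeq windows were at hand for 5 of the 9 genes (DACT1, DKK1, WNT5A, LEF1 and CTNNB1), 8 windows in all, and 2 of the 8 held the core. Of all 35116 windows of this length, 12.9% held it. The longer form CTTTGAT, which contains the core, was in none of the 8 windows and in 2.6% of all windows. TGANTCA, the AP-1 motif, and CCGGAAG, an ETS motif, were in none of the 8, and in 7.7% and 10.3% of all windows. The other 2 windows of DACT1, from starts further downstream, had no core. Those of LEF1 and WNT5A have starts inside the annotated gene spans, so the 5′ ends of these spans were not searched. A match of letters describes the window and is not a binding site.

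CTNNB1, which encodes β-catenin, changed little. For CTNNB1, KO/LacZ arrays gave 11.66, 11.59 and 11.28 log2 units over vehicle, 6 h and 18 h, and KO/eIF4B arrays 11.82, 11.65 and 11.50. The 18 h arrays were the lowest in each line. The change was -0.12 at 6 h (adjusted p = 0.30) and CTNNB1 fell by 0.35 at 18 h (SE 0.07, 95% interval -0.53 to -0.18, adjusted p = 0.0093), which is 1.3-fold. Neither of its other 2 probe sets passed at 18 h, with changes of -0.01 and -0.14. The 18 h call was lost without either vehicle array (adjusted p of 0.067 without that of the knockout line and 0.076 without that of the rescued line), and the call of 18 h against 6 h (-0.24, adjusted p = 0.0498) was lost in each of the 6 fits that leave out an array, with values from -0.30 to -0.17.

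AXIN2, a scaffold of the destruction complex and a widely used readout of β-catenin activity, was dim. For AXIN2, KO/LacZ arrays gave 5.26, 5.54 and 5.03 log2 units over vehicle, 6 h and 18 h, and KO/eIF4B arrays 5.41, 5.36 and 5.27. The treatments overlapped, and the other 3 probe sets had means below 5. The changes were 0.12 at 6 h (95% interval -0.17 to 0.40, adjusted p = 0.53) and -0.18 at 18 h (95% interval -0.47 to 0.11, adjusted p = 0.24). Neither interval reached 0.5 log2 units in either direction. These intervals bound the signal of a dim probe set, which RMA compresses, and not the change in AXIN2 mRNA.

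LEF1, a DNA-binding partner of β-catenin, fell in both lines. For LEF1, KO/LacZ arrays gave 8.74, 8.01 and 7.50 log2 units over vehicle, 6 h and 18 h, and KO/eIF4B arrays 9.01, 8.18 and 7.74. The treatments did not overlap, and the knockout line was the lower at each of them. LEF1 changed by -0.78 at 6 h (SE 0.06, adjusted p = 0.0029) and by -1.26 at 18 h (SE 0.06, 95% interval -1.41 to -1.10, adjusted p = 0.00026), which is 2.4-fold. The step from 6 h to 18 h was -0.48 (adjusted p = 0.0062). Both dimmer probe sets passed at 18 h in the fit of all probe sets, at -1.02 and -0.34, and missed the threshold at 6 h, at -0.65 and -0.21.

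LEF1 made the widest fall among the genes with a RefSeq window, so its window is shown: chr4:108166252-108166551, build GRCh38.p14, minus strand, printed 5′ to 3′ with no capitals, since CTTTGA and TCAAAG do not occur in it. Its start site, 108166301, lies inside the annotated gene span, which runs to 108168932. The 5′ end of that span was not searched.
LEF1: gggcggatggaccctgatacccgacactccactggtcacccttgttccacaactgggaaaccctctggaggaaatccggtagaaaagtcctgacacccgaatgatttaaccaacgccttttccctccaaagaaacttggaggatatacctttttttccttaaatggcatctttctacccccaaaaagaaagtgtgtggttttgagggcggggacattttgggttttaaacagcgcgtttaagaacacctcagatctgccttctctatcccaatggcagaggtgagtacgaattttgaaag

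Between the times, 5 of the 9 genes passed the threshold, WNT5A and DKK3 higher at 18 h and SFRP1, LEF1 and CTNNB1 lower, where 34% of all tested genes passed, 19% higher and 14.9% lower. These calls share their 6 h arrays. Without the 6 h array of the knockout line SFRP1 alone passed, and WNT5A (0.87, adjusted p = 0.066), DKK3 (0.99, adjusted p = 0.073) and LEF1 (-0.43, adjusted p = 0.052) missed the threshold narrowly with their direction kept. The 6 h and 18 h changes against vehicle share the vehicle arrays and are given side by side only.

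**Figure D2:**
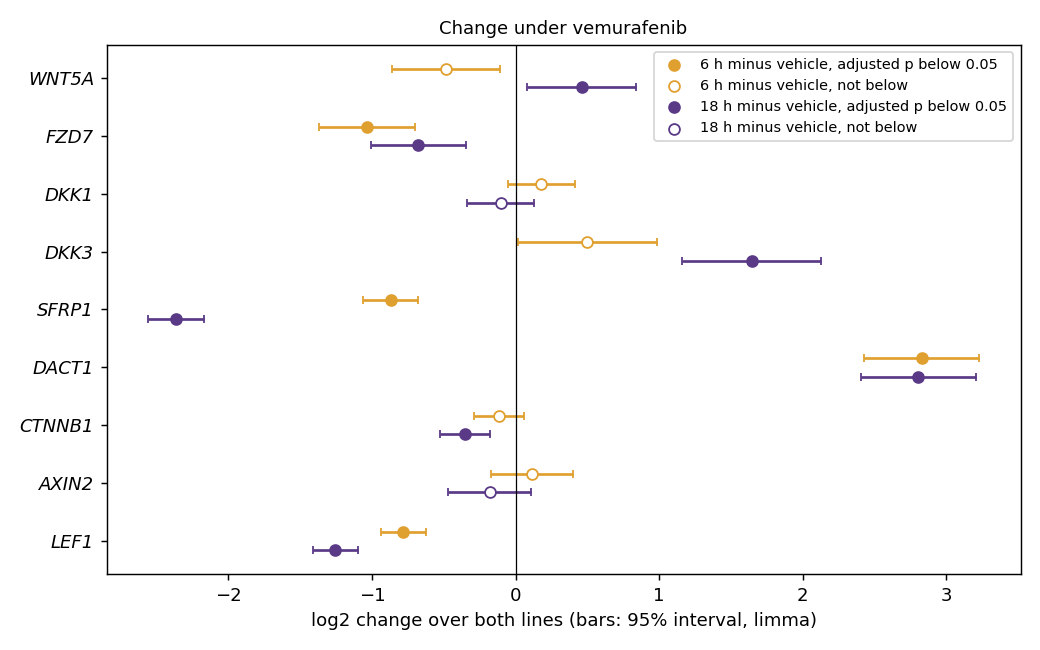
Change (log2, x axis) at 6 h and 18 h of vemurafenib minus vehicle for each gene over both lines, with 95% intervals from the additive limma model; filled points passed the adjusted threshold of 0.05. DACT1 stands at 2.83 and 2.81, SFRP1 at -0.87 and -2.37, and WNT5A at -0.48 and 0.46, on either side of 0.

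The second question of the design is whether cells without eIF4B differed from rescued cells. None of the 9 genes passed the threshold between the lines (limma over all 6 arrays, 0 of 9, with 2 at an unadjusted p under 0.05), where 2.5% of all tested genes passed, 1.44% higher in the knockout line and 1.06% lower. LEF1 came nearest. It was lower in the knockout line in 3 of 3 pairs of arrays, with differences of -0.26 under vehicle, -0.17 at 6 h and -0.24 at 18 h (-0.22 over all pairs, SE 0.05, 95% interval -0.35 to -0.10, unadjusted p = 0.0060, adjusted p = 0.091). The second LEF1 probe set differed by -0.51, -0.18 and 0.19 in the same pairs, so it ran the other way at 18 h, and the third by -0.06, -0.05 and -0.20. CTNNB1 was also lower in 3 of 3 pairs, with a difference of -0.15 (95% interval -0.29 to -0.0041, adjusted p = 0.21). SFRP1 differed by -0.06 (95% interval -0.22 to 0.10) and DKK1 by -0.05 (95% interval -0.24 to 0.14). For DACT1 (-0.24), DKK3 (0.23), WNT5A (0.01), FZD7 (0.06) and AXIN2 (-0.07) the intervals were wider, that of DACT1 reaching from -0.56 to 0.09.

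The lines were then compared in their response to vemurafenib. One term, common to both drug times, passed for 0 of the 9 genes, as for 0% of all tested genes in this limma fit (0 of 13506, with 302 at an unadjusted p under 0.05, and 11 when the prior followed intensity). The term was 0.45 for DACT1 (95% interval -0.08 to 0.98), 0.41 for DKK3 (-0.32 to 1.14) and 0.38 for WNT5A (-0.17 to 0.92), each with adjusted p = 1.0.

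At a single time the lines could be compared as values only. DKK3 at 18 h was 0.71 log2 units higher in the knockout line, beside 0.03 at 6 h and -0.04 under vehicle. The other 3 DKK3 probe sets that were higher at 18 h had differences of 0.80, 0.54 and 0.30 there. WNT5A at 18 h was 0.36 higher in the knockout line on its first probe set and 0.56 on its second. FZD7 at 18 h was higher by 0.31 on the first and by 0.05 on the second.

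**Figure D3:**
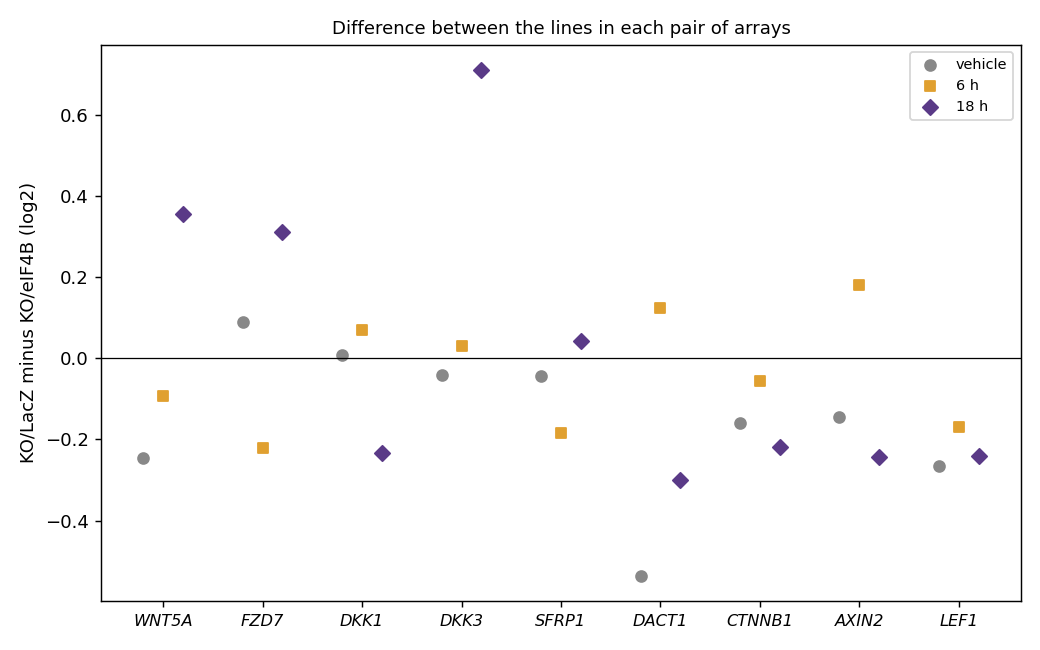
Difference between the knockout line and the rescued line (KO/LacZ minus KO/eIF4B, log2, y axis) for each gene within the vehicle, 6 h and 18 h pair of arrays. LEF1 lies below 0 in all 3 pairs, and DKK3 at 18 h stands highest at 0.71; each point is a single pair and has no error of its own.

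The surrounding pathway was followed through 113 further WNT genes in 10 lists by role, chosen with earlier results of these data known. Of these, 109 had a probe set and 83 were tested, while 26 were too dim. At 6 h 8 of the 83 were higher and 12 lower, and at 18 h 19 were higher and 15 lower, with medians of 0.0039 and 0.0015 log2 units beside 0.03 and 0.01 over all tested genes. That is 20 of 83 at 6 h and 34 of 83 at 18 h, beside the 16.2% and 51.4% of all tested genes. The 6 h count fell when a vehicle array or a 6 h array was left out, as did that of all tested genes. For a change beyond 0.5 log2 units, 5 of the 83 passed at 6 h and 15 at 18 h, beside 227 and 1558 of all 13506 tested genes.

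None of the 10 other WNT ligands tested passed at either time in limma, with 0 at 6 h and 1 at 18 h under an unadjusted p of 0.05. These ligands were dim, with means from 5.21 (WNT8B) to 6.54 (WNT10B) log2 units, where testing required 5. Whether their probe sets detected the ligand mRNAs was not tested, so a missed threshold here does not show an unchanged ligand. WLS, which carries WNT proteins to the cell surface, fell by 0.48 at 18 h (adjusted p = 0.0020). Receptors split. For ROR1, a receptor for WNT5A, KO/LacZ arrays gave 7.53, 5.43 and 4.70 log2 units over vehicle, 6 h and 18 h, and KO/eIF4B arrays 7.75, 5.87 and 4.76. It fell at both times, with changes of -1.99 and -2.91 (adjusted p of 0.00089 and 0.00016). FZD1 also fell, with changes of -1.59 and -1.52 (adjusted p of 0.0010 and 0.00036). Of the 12 receptors tested, 1 was higher and 3 lower at 6 h, and 2 were higher and 4 lower at 18 h. Of all tested genes 7.34% were higher and 8.82% lower at 6 h, and 28.1% higher and 23.3% lower at 18 h.

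For LGR4, a receptor for R-spondins that strengthens WNT signals, KO/LacZ arrays gave 5.65, 6.33 and 7.93 log2 units over vehicle, 6 h and 18 h, and KO/eIF4B arrays 5.29, 6.22 and 7.29. It rose by 0.81 at 6 h (adjusted p = 0.019) and by 2.14 at 18 h (adjusted p = 0.00037). ZNRF3, the ubiquitin ligase that removes Frizzled receptors and that the LGR receptors counteract, fell, with changes of -0.62 and -0.93 (adjusted p of 0.020 and 0.0015). No other of the 5 tested genes of that list passed, where 16.2% of all tested genes passed at 6 h and 51.4% at 18 h.

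Genes of the planar polarity branch, which works through Frizzled and Dishevelled without β-catenin, were higher at 18 h in 6 of 9 cases and lower in 0, beside 28.1% and 23.3% of all tested genes. Of the 6, PRICKLE2 (4.74 and 4.85 log2 units under vehicle, mean 5.16) and VANGL2 (mean 5.25) reached the mean of 5 through the arrays in which they were high. The count for this list, and the 18 h rises of PRICKLE2 and VANGL2, are therefore descriptions only. CELSR2, an atypical cadherin, rose by 1.64 (adjusted p = 0.00069) and VANGL2, a membrane protein of the same system, by 1.20 (adjusted p = 0.0022). For VANGL2, KO/LacZ arrays gave 5.22, 5.26 and 6.57 log2 units over vehicle, 6 h and 18 h, and KO/eIF4B arrays 4.35, 4.72 and 5.40. CELSR1, a further cadherin of this kind, was higher at 18 h than at 6 h by 1.06 (adjusted p = 0.0037), and at 6 h DAAM1 alone passed (0.55, adjusted p = 0.028). On log2(value + 32) the VANGL2 rise was 0.69, and without the line as covariate its adjusted p was 0.082.

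Inside the cell, DVL2 rose by 0.53 and DVL1 fell by 0.38 at 18 h (adjusted p of 0.0040 and 0.0074), both being Dishevelled proteins. In the destruction complex TNKS, a tankyrase that marks Axin for breakdown, rose by 0.31 and 0.63 at 6 h and 18 h (adjusted p of 0.036 and 0.0013). AXIN1, the scaffold, fell by 0.31 at 18 h (adjusted p = 0.031), and the kinase GSK3B fell by 0.38 at 6 h (adjusted p = 0.018). Of the 11 genes of that list 9 missed the threshold at 6 h and 8 at 18 h, where 16.2% and 51.4% of all tested genes passed. Among 14 nuclear factors, CBY1, an antagonist of β-catenin, rose by 1.12 and its coactivator BCL9 by 0.90 at 18 h (adjusted p of 0.00051 and 0.0012), and the corepressor TLE3 fell by 0.69 at 6 h (adjusted p = 0.0052).

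Classical β-catenin targets did not move one way. CCND1, which encodes cyclin D1, changed by -2.61 and -3.32, and MYC by -2.00 and -3.29, at 6 h and 18 h (adjusted p of 0.00024 and 8.1e-05, and of 0.0034 and 0.00028). Both are also known targets of ERK signalling. TNFRSF19, a TNF receptor family member, was higher at 18 h than at 6 h by 0.86 (adjusted p = 0.012), or by 0.63 without the 6 h array of the knockout line (adjusted p = 0.054). Of 9 tested targets 2 were higher and 4 lower at each time, where 7.34% of all tested genes were higher and 8.82% lower at 6 h, and 28.1% higher and 23.3% lower at 18 h. MITF, the pigment cell regulator, is in this list and among the melanocytic markers.

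Of the 12 wider genes named for 6 h, 5 kept their call whichever array was left out (ROR1, FZD1, TLE3, CCND1 and MYC), and LGR4, ZNRF3, TPBG, DAAM1, GSK3B, TNKS and CBY1 lost it without at least 1 array, each of them without either vehicle array, with adjusted p up to 0.28. TPBG, a surface inhibitor of WNT signalling, changed by -0.89 (adjusted p = 0.016). Of the 15 named for 18 h, 13 kept theirs, and DVL1 (0.080 without the vehicle array of the rescued line) and AXIN1 (0.20 without the vehicle array of the knockout line, -0.19 and 0.11 for its change and adjusted p without that line's 18 h array, 0.080 without the vehicle array of the rescued line) did not.

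Between 6 h and 18 h, 20 of the 83 wider genes were higher at 18 h and 7 lower, beside 19% and 14.9% of all tested genes, and 11 passed in all without the 6 h array of the knockout line. GSK3B turned from its 6 h fall, with 18 h above 6 h by 0.50 (adjusted p = 0.0052), and LGR4, CELSR2, CBY1 and BCL9 were higher by 1.33, 1.23, 0.76 and 0.64. ROR1 and MYC were lower at 18 h than at 6 h (-0.93 and -1.29). Of the 15 genes named for this step, 8 kept their call whichever array was left out, these 7 and CELSR1.

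**Figure D4:**
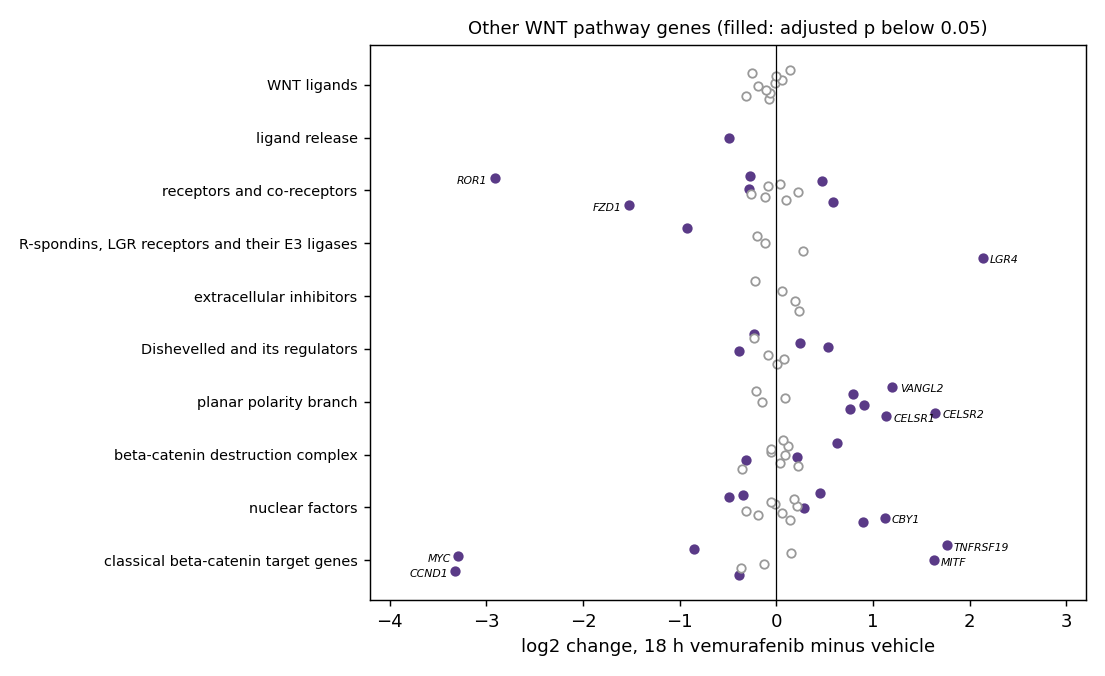
Log2 change at 18 h of vemurafenib minus vehicle (x axis) for 83 further WNT pathway genes in 10 lists by role; filled points passed the adjusted threshold of 0.05, and genes beyond 1 log2 unit are named. The planar polarity list has 6 of 9 genes filled and all 6 above 0, while receptors and target genes lie on both sides.

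Between the lines, 3 of the 83 wider genes passed, beside 2.5% of all tested genes. VANGL2 was higher in the knockout line in 3 of 3 pairs (0.86, adjusted p = 0.044), as was TLE5, a shortened relative of the TLE corepressors (0.43, adjusted p = 0.032), and CCND1 was lower (-0.47, adjusted p = 0.034). With 4.35, 4.72 and 5.40 log2 units in the rescued line, VANGL2 reached the mean of 5 through the knockout line. Its difference is therefore a description only. Without the filter on dim genes none of the 3 calls held. All 3 calls were lost whichever array was left out, with adjusted p up to 0.13.

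Profiles most like those of the 3 genes with the widest range over the arrays were found among all tested genes, by the root mean square difference of the 6 centred log2 values. Nearest to SFRP1 were AJAP1 (0.07), TIMP3 (0.14), CD96 (0.17), CDC25A (0.17) and CCNE2 (0.17). Nearest to DKK3 were ROBO1 (0.06), CELSR2 (0.07), SSBP2 (0.08), RHBDF1 (0.09) and TP53INP2 (0.10). DACT1 had no neighbour as close, PCDH10 being first at 0.38, then VGLL3 (0.41), PRR16 (0.46), CTH (0.46) and JDP2 (0.52). These are descriptions over 6 arrays that share the same treatments.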

How the data were processed

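Total RNA of the 6 samples was labelled with biotin and hybridised to Affymetrix arrays. The submitters' processing notes name RMA and affy (versions not given in the sources used here), and the authors deposited linear intensity values between 3.01 and 19000. RMA scales all arrays to one distribution, so a change in total mRNA would not show, and it compresses dim signals. The number of arrays limits the precision. From the deposited intensities, log2 was taken here.

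Of 54675 probe sets, 62 array controls were left out, 41091 carried 1 gene symbol, 1801 several and 11721 none in the platform annotation; 41037 single symbols matched RefSeq's GRCh38.p14 table by gene identifier. For each gene the probe set with the highest mean was used, and the 13506 genes averaging 5 log2 units or more entered the test. Genes were fitted with an additive model of line and treatment (lmFit and eBayes of limma 3.58.1 in R 4.3.3; residual df 2, prior df 3.19; Benjamini-Hochberg adjustment over all tested genes, threshold 0.05). The error of a drug effect is thus the disagreement between the lines. Differences between the lines are knockout minus rescued. The scripts were tested on simulated data. The members and gene lists were chosen with earlier results of these data known. All members were named, and from the wider lists up to 2 genes per list and comparison with the largest change past the threshold. Alternatives covered the filter, probe sets, log scale, centring, prior, a minimum change, covariates and leaving out arrays; leaving out both 18 h or both 6 h arrays was added after seeing the data. Figures were drawn with matplotlib 3.10.9.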

Additional observations from a re-analysis of the deposited data

Results flagged for a closer look

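By the test of 18 h against 6 h (limma, adjusted over all tested genes), 5 of the 9 genes passed the threshold, where 34% of all tested genes passed. Among them SFRP1 alone kept its call whichever array was left out. The 18 h value minus the 6 h value was 0.94 for WNT5A, 1.14 for DKK3, -1.49 for SFRP1, -0.48 for LEF1 and -0.24 for CTNNB1. For WNT5A the change against vehicle had opposite signs at the 2 times, although the 6 h value missed the threshold. Groups of a single array leave no room for a search for outlying samples.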

How the results depend on the processing

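DACT1, SFRP1, LEF1, DKK3 and FZD7 at 18 h, and DACT1, SFRP1 and LEF1 at 6 h, kept direction and call whichever array was left out. Genes passing at 6 h numbered 2182, and 1398 without the filter, 976 without the line as covariate, 227 beyond a change of 0.5, 3656 of all probe sets, and 594 to 2530 with an array left out. At 18 h they numbered 6947, and 1558 beyond 0.5, 12434 of all probe sets, and 4310 to 6563 with an array left out. For 18 h against 6 h they numbered 4587, and 2727 without the line as covariate, 240 beyond 0.5, 7882 of all probe sets, and 1435 to 4252 with an array left out. Between the lines they numbered 337, and 58 without the filter, 513 with a mean of at least 6, 698 on log2(value + 32), 1169 with the intensity trend, 1 beyond 0.5, 1 without treatment as covariate, 0 without the 18 h arrays, and 0 to 50 with an array left out. The response difference gave 11 with the intensity trend and 0 otherwise. Of the 9 genes, beyond 0.5 log2 units 1 passed at 6 h, 4 at 18 h and 1 between the times, where 3 passed without the line as covariate; with an array left out 3 to 6 passed at 6 h, 5 to 7 at 18 h and 1 to 6 between the times. The highest count at 6 h came without either 18 h array. A minimum change makes a test stricter by construction, and otherwise the cause was not tested.

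Signs turned only for values that missed the threshold. With an array left out AXIN2 at 6 h ran from -0.0715 to 0.30, DKK1 at 18 h from -0.24 to 0.0317, and DACT1 between the times from -0.29 to 0.25. Between the lines WNT5A ran from -0.17 to 0.13, DKK1 from -0.11 to 0.0389, DKK3 from -0.0049 to 0.37, AXIN2 from -0.19 to 0.0171 and FZD7 from -0.067 to 0.20, and without both 18 h arrays they stood at -0.17, 0.0389, -0.0049, 0.0171 and -0.067. Arrays were paired by line and by treatment through the terms of the additive model. The labels give no replicate numbers, so replicates could not be paired. With an array left out 1 residual degree of freedom is left, the lone sample is assumed to vary like the others, and the response difference was not run so. Dim probe sets (AXIN2 throughout, DACT1 under vehicle) limit what could be measured.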
